A study of Mus musculus with 6 samples.

Results

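The enzymes of the mevalonate pathway that lead from acetyl-CoA to farnesyl diphosphate, with the enzyme that lengthens farnesyl diphosphate, were examined in mouse breast carcinoma cells with and without induction of a LINE-1 (L1) retrotransposon. The members were found in the table of read counts by their symbols: Acat2, Hmgcs1, Mvk, Pmvk, Mvd, Idi1, Fdps and Ggps1, which are 8 of the 24421 genes listed. They were chosen from earlier results of these same libraries, so their differences between the groups are given as a description, with no p-value. All 8 passed the filter on low counts, with at least 524 counts of each in every library.

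The cells were 4T1-tetL1(GLucAI), a stable population of the BALB/cfC3H mouse breast carcinoma line 4T1, selected as a population and not as a single clone, into which a cassette had been integrated with PiggyBac transposase. On doxycycline the cassette expresses a recoded mouse L1 that carries a Gaussia luciferase readout and, in the other direction, firefly luciferase. The transactivator of the cassette is driven by the EF1α promoter. Total RNA depleted of ribosomal RNA was sequenced from 3 libraries titled untreated, whose treatment is labelled vehicle, and from 3 libraries of cells given doxycycline at 400 ng/mL for 48 h. The study calls the replicates biological triplicates, and the labels do not say whether they were separate cultures, so p-values measure the spread between these samples. All 6 libraries carry the cassette, so actions of doxycycline itself, of L1 and of the firefly luciferase induced with it cannot be told apart. The cassette transcript was not analysed here, and the directions below rest on the labels.

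Totals lay between 31653464 and 43631312 counts per library, and 15418 to 15685 genes had a count. A detection floor of 3 counts corresponded to at most 0.0944 CPM, the unit of all levels below, in which each library is brought to the same TMM-scaled total. The summed level of 6 carcinoma markers, among them Epcam, Cdh1 and the keratins Krt8 and Krt18, was 1806 to 1893 CPM in untreated and 1754 to 1983 CPM in doxycycline libraries, and 1 of the 6, Krt19, was lower after doxycycline. The 5 immune markers summed to 9.36 to 11.6 CPM and to 8.83 to 10.8 CPM, nearly all of it Cd68, with Adgre1 at 0 in every library. The 4 fibroblast markers summed to 35.7 to 38.7 CPM in untreated and 27.9 to 29.6 CPM in doxycycline libraries. Nearly all of that was Pdgfra, which was lower after doxycycline, whereas Col1a1 and Col1a2 stayed below 1 CPM. The 3 endothelial markers summed to at most 0.68 CPM and the 2 adipocyte markers to at most 0.073 CPM. These cells are a selected population of the 4T1 line, so no marker sum is read as cells of another type. Since the samples are bulk, fewer cells with a transcript and less of that transcript per cell cannot be told apart. Reads of Rn45s, the ribosomal RNA precursor, took 8.83% to 12.1% of the counts, the most in doxycycline replicate 2.

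The mevalonate pathway builds isoprenoid units from acetyl-CoA. Its product farnesyl diphosphate is the branch point to sterols, to dolichol, ubiquinone and heme A, and to the lipid anchors that hold Ras and Rab proteins and lamins at membranes. Most genes of the pathway are textbook targets of the sterol regulatory element-binding proteins (SREBPs), transcription factors released from the endoplasmic reticulum when sterols run low. In breast carcinoma cells the pathway is known as a source of membrane cholesterol and of prenylated small GTPases.

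The promoters of 7 of the 8 members were matched by symbol in RefSeq windows of GRCm38.p6 that run from 250 bases before to 50 bases after an annotated start, and no window was matched for Fdps. The windows of 5 members are printed 5′ to 3′ on the strand of the gene because they set beside each other Ggps1 and members whose level was higher after doxycycline. Capitals mark the letters TCACNCCAC of a sterol regulatory element with at most 1 mismatch and the letters of the CCAAT box, in either orientation.
Hmgcs1, chr13:119690101-119690400, plus strand: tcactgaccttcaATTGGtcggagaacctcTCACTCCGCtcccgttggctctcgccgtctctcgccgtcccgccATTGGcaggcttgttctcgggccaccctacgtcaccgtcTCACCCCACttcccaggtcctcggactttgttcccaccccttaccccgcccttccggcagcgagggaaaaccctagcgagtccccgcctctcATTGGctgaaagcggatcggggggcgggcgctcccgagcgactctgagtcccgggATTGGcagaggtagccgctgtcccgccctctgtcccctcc
Mvk, chr5:114444019-114444318, plus strand: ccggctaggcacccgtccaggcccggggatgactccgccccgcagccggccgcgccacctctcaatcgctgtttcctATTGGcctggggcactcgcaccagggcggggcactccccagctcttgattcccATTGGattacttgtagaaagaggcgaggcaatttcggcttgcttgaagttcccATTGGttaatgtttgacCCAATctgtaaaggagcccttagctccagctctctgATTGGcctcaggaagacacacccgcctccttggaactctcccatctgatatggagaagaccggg
Mvd, chr8:122443373-122443672, minus strand: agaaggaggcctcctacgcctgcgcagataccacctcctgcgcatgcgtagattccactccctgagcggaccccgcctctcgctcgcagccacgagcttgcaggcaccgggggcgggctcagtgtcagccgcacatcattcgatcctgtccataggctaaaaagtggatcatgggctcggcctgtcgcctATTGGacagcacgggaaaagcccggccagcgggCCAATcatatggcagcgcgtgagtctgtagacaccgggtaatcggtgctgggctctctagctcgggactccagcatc
Idi1, chr13:8885356-8885655, plus strand: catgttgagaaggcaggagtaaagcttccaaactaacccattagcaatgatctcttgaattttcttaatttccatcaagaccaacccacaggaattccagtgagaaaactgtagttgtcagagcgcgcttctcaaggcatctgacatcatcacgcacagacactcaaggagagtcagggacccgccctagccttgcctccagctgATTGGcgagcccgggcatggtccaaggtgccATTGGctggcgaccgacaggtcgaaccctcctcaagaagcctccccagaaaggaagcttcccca
Ggps1, chr13:14063439-14063738, minus strand: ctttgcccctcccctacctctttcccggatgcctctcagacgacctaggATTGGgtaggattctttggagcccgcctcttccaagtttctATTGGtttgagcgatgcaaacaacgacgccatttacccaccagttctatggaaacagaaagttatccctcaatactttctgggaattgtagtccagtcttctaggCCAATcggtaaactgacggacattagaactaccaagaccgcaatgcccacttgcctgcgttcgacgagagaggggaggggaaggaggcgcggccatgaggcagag

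Both strands of every window were searched. The sterol regulatory element letters without a mismatch were found in the Hmgcs1 window, as TCACCCCAC from base -137 to base -129 with the start base counted as 0, and in none of the other members' windows. These letters occur in 1.2% of all 32851 promoter windows of the same length. With 1 mismatch allowed they were found in Acat2 and Hmgcs1, and in 24.2% of all windows. The CCAAT box was found in 6 of the 7 members, all but Acat2, and in 37.4% of all windows. The 7 members had 8 windows, since Pmvk had a second, which held no CCAAT box. A member was counted if any of its windows held a match. Mvk held 5 such boxes, Hmgcs1 held 4 and Ggps1, the member whose level overlapped between the groups, held 3. The Mvk and Ggps1 windows overlap those of the neighbouring genes Mmab and Arid4b, which hold CCAAT boxes too. The GC box GGGCGG was found in 5 of the 7 members (Acat2, Hmgcs1, Mvk, Mvd and Idi1) and in 35.7% of all windows. Matches of different motifs did not overlap in these windows, apart from the exact letters, which also count among those with 1 mismatch allowed, and a match is a description of letters only.

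Of the 8 members, 7 were higher in the doxycycline libraries and none was lower, by the quasi-likelihood test of edgeR with a Benjamini-Hochberg adjusted p under 0.05. Among all 13084 genes tested, the same rule called 0.925% higher and 2.16% lower. The groups of 3 libraries did not overlap for these 7 members, whereas 10.1% of all tested genes had every doxycycline library above every untreated library. Since the members were chosen with these differences known, nothing is read from the counts. The median log2 fold change, doxycycline against untreated, was 0.53 over the 8 members and 0.002 over all tested genes. The 7 higher members spanned 0.41 to 0.67, that is 1.33-fold to 1.59-fold, and 508 tested genes, 3.88%, had a log2 fold change at or above the lowest of them. The summed level of the 8 members went from 529.6 ± 5.86 CPM (SD, n = 3) to 759 ± 18.6 CPM, a ratio of 1.43.

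The first steps make HMG-CoA. Acat2 (chr17:12943042-12960725, GRCm38) encodes the cytosolic thiolase that joins acetyl-CoA units into acetoacetyl-CoA. It was measured at 91.7, 88.9 and 93.1 CPM in untreated libraries 1 to 3 and at 132, 111 and 121 CPM in doxycycline libraries 1 to 3. The doxycycline libraries differed more among themselves than the untreated ones did, but the lowest of them still lay 17.4 CPM above the highest untreated library. Its log2 fold change was 0.41 (SE 0.058). Hmgcs1 (chr13:119690351-119708260) encodes the cytosolic synthase that adds a further acetyl group to give HMG-CoA, and its promoter is the one printed above with the exact sterol regulatory element letters. It stood at 188, 186 and 186 CPM in the untreated libraries and at 278, 261 and 273 CPM in the doxycycline libraries. It had the tightest untreated group, with a coefficient of variation of 0.50%, and its groups were 73.4 CPM apart. The log2 fold change of Hmgcs1 was 0.54 (SE 0.044).

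**Figure D1:**
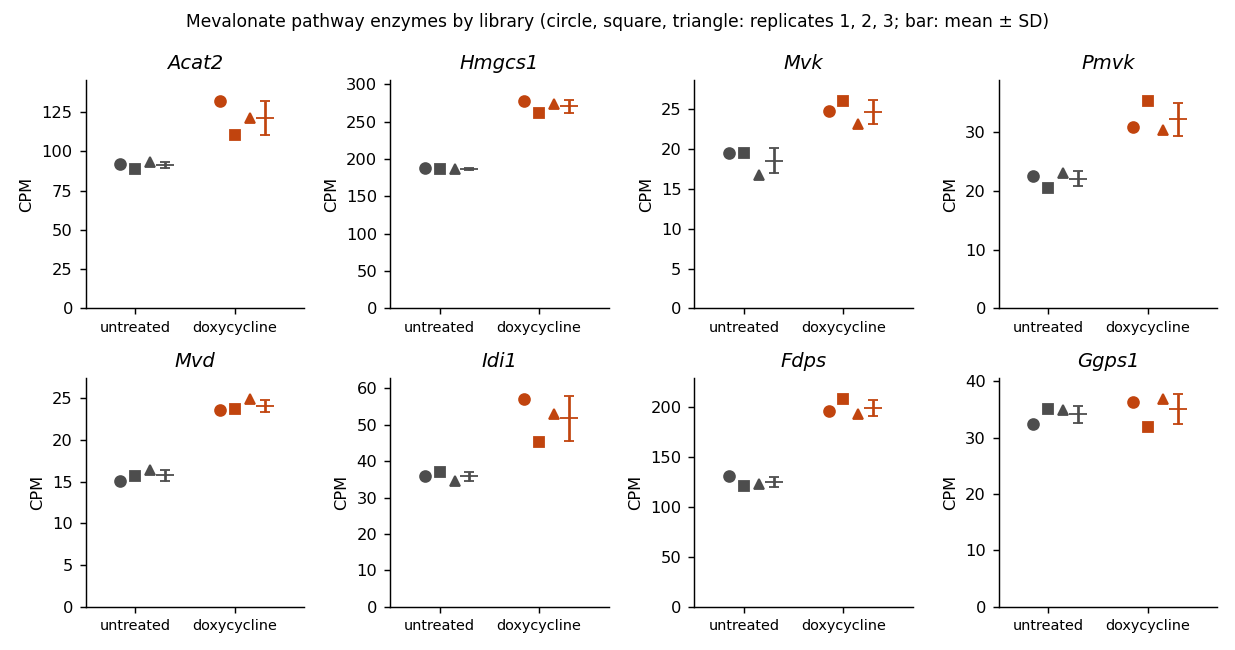
Level in CPM of each of the 8 enzymes (a panel each, linear axis from 0) in the 3 untreated (grey) and 3 doxycycline (orange) libraries, with the mean ± SD beside the points. The groups are apart in 7 panels, and only in Ggps1 do the untreated (32.5 to 35.0 CPM) and doxycycline (32.0 to 36.9 CPM) libraries overlap.

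The 3 enzymes Mvk, Pmvk and Mvd turn mevalonate into isopentenyl diphosphate. Mvk (chr5:114444264-114460591) encodes mevalonate kinase, which adds the first phosphate. Its level was 19.5, 19.5 and 16.7 CPM in untreated and 24.8, 26.1 and 23.1 CPM in doxycycline libraries. Untreated library 3 was the low one, and the gap between the groups was 3.65 CPM. The log2 fold change of 0.41 (SE 0.085) became 0.34 when that library was left out, and the gene was then no longer called. Pmvk (chr3:89454541-89469014) encodes phosphomevalonate kinase, which adds the next phosphate. It was found at 22.6, 20.6 and 23.0 CPM against 30.8, 35.4 and 30.4 CPM. Doxycycline library 2 was the highest of the 6, and no doxycycline library came within 7.42 CPM of an untreated one, with a log2 fold change of 0.55 (SE 0.079).

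Mvd (chr8:122433596-122443422) encodes the decarboxylase that releases isopentenyl diphosphate. It had the fewest counts of the members in 5 of the 6 libraries, with 524 to 969 per library. The CPM values were 15.1, 15.7 and 16.5 in untreated and 23.6, 23.7 and 24.9 in doxycycline libraries. Both groups were narrow, with coefficients of variation of 4.30% and 2.995%, and the log2 fold change was 0.61 (SE 0.080).

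The last steps assemble the prenyl chains. Idi1 (chr13:8885606-8892396) encodes the isomerase that makes dimethylallyl diphosphate, the starter of the chain. It was measured at 36.0, 37.0 and 34.6 CPM in the untreated libraries and 57.1, 45.2 and 53.0 CPM in the doxycycline libraries. Its doxycycline group had the widest relative spread of all members, a coefficient of variation of 11.7%, through the low value of library 2, and its log2 fold change was 0.53 (SE 0.074). Fdps (chr3:89093588-89101967) encodes farnesyl diphosphate synthase, the target of the nitrogen-containing bisphosphonates. It stood at 131, 121 and 123 CPM in the untreated and 196, 209 and 193 CPM in the doxycycline libraries. It had the highest log2 fold change of the members, 0.67 (SE 0.048), and the groups were 62.2 CPM apart.

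Ggps1 (chr13:14049790-14063566) encodes geranylgeranyl diphosphate synthase, which lengthens farnesyl diphosphate for the anchors of Rab proteins and other small GTPases. It was measured at 32.5, 35.0 and 35.0 CPM in untreated and at 36.3, 32.0 and 36.9 CPM in doxycycline libraries. The lowest of all 6 values was a doxycycline library, the groups overlapped, and the log2 fold change was 0.04 (SE 0.071). The ratio of the Fdps to the Ggps1 level, per length of exon, was 4.52, 3.88 and 3.96 in untreated libraries and 6.06, 7.32 and 5.87 in doxycycline libraries. The means were 4.12 ± 0.35 and 6.42 ± 0.79 (SD, n = 3), with no overlap. The ratio is made of the Fdps and Ggps1 values given above, chosen with their differences known, so nothing further is read from its separation.

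**Figure D2:**
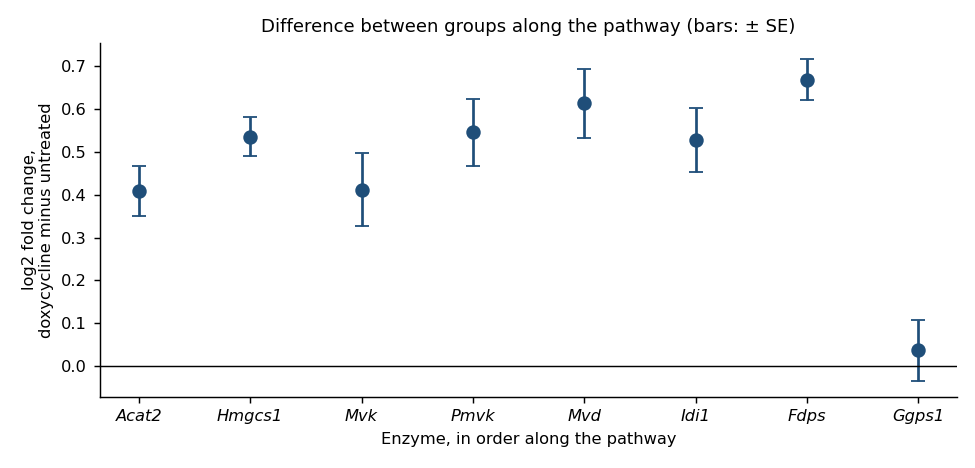
Log2 fold change (doxycycline against untreated, ± SE) of the 8 members in the order of their steps. The points from Acat2 to Fdps lie between 0.41 and 0.67, and Ggps1 lies at 0.04.

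Levels were compared between genes only per length, as CPM per kilobase of all exons of the gene. In untreated libraries the order was Hmgcs1 at 40.7 ± 0.20, Acat2 at 35.9 ± 0.85, Fdps at 29.8 ± 1.18, Pmvk at 12.9 ± 0.75, Idi1 at 10.2 ± 0.35, Mvd at 8.47 ± 0.36, Ggps1 at 7.24 ± 0.31 and Mvk at 6.93 ± 0.60 (mean ± SD, n = 3). Ggps1 and Mvk were the only neighbours in this order whose libraries overlapped. In doxycycline libraries the levels were Hmgcs1 59.0 ± 1.91, Acat2 47.7 ± 4.29, Fdps 47.3 ± 1.96, Pmvk 18.8 ± 1.62, Idi1 14.8 ± 1.73, Mvd 13.0 ± 0.39, Mvk 9.22 ± 0.56 and Ggps1 7.42 ± 0.57. Here Acat2 and Fdps overlapped, as did Idi1 and Mvd, and Mvk stood above Ggps1 without overlap. With the longest transcript as the length, Fdps (67.4) stood above Acat2 (53.9), and Idi1 above Mvd, each without overlap. The highest member was 5.87 times the lowest in untreated and 7.94 times in doxycycline libraries.

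**Figure D3:**
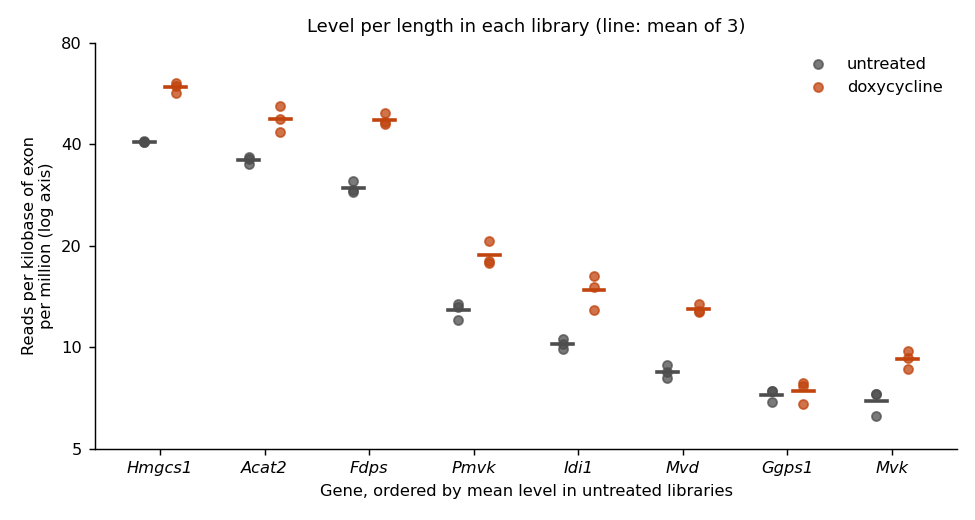
CPM per kilobase of exon (log axis) in each library for the 8 members, ordered by the untreated mean; points are libraries and lines are means of 3. Hmgcs1 is highest in both groups, at 40.7 and 59.0, and Ggps1 and Mvk are lowest in both, changing places between the groups.

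Of 5 paralogs and related enzymes tested beside the members, 2 rose and none fell, against 0.925% of all genes called higher. These enzymes and the lists below were also chosen with earlier results of these data known. Nothing is read from their counts, and their adjusted p-values are given as a description. Both supply cytosolic acetyl-CoA. Acly, ATP citrate lyase, went from 357 ± 7.99 to 432 ± 9.63 CPM, with a log2 fold change of 0.28 and an SE of 0.043 (adjusted p = 0.000525 in edgeR). Acss2, acetyl-CoA synthetase, went from 26.4 ± 1.21 to 33.8 ± 2.83 CPM, with a log2 fold change of 0.36 and an SE of 0.075 (adjusted p = 0.00897 in edgeR). The 3 paralogs did not pass. Acat1, the mitochondrial thiolase, stood at 87.3 ± 3.31 and 86.6 ± 2.85 CPM (adjusted p = 0.944). Idi2, the second isomerase gene, had 8, 19 and 11 counts in untreated and 1, 3 and 11 in doxycycline libraries (adjusted p = 0.347). Acat3, at 2.06 ± 0.53 and 2.07 ± 0.41 CPM, gave an adjusted p of 0.985.

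Downstream of farnesyl diphosphate, 28 genes of the isoprenoid branches were tested, and 1 rose and none fell, with a median log2 fold change of 0.04. Over all tested genes 0.925% were called higher and 2.16% lower. Without doxycycline replicate 2 the count of branch genes called higher was 4, and that fit called 269 of all 13237 tested genes higher. The gene that rose was Fdft1, squalene synthase, which commits farnesyl diphosphate to sterols. It went from 92.5 ± 5.04 to 130.2 ± 2.42 CPM, with a log2 fold change of 0.49 and an SE of 0.051 (adjusted p = 3.28e-06 in edgeR). None of the 11 protein prenylation genes (median log2 fold change 0.04), of the 5 dolichol genes (0.01) or of the 10 ubiquinone and heme A genes (0.04) passed. At an unadjusted p under 0.05 the whole branch list had 4 genes higher and 1 lower. Of all 13084 tested genes, 2119 lay under that threshold in either direction, so nothing is read from this count. In the branch list DESeq2 and limma voom each called 1 higher and 0 lower. Of all 13084 tested genes DESeq2 called 185 higher and 358 lower, and limma voom called 119 higher and 278 lower.

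The proteins that carry the prenyl anchors were examined at the transcript level. Of 15 genes for prenylated GTPases and lamins none passed in edgeR, and their median log2 fold change was -0.04. Over all tested genes 0.925% were called higher and 2.16% lower. At an unadjusted p under 0.05 there were 0 higher and 4 lower. Of all 13084 tested genes, 2119 lay under that threshold in either direction, so nothing is read from this count. For the same 15 genes limma voom called 0, and DESeq2 called 1 lower, Rac1. Of all 13084 tested genes DESeq2 called 358 lower. Rac1, a small GTPase of the cell edge, went from 477 ± 7.84 to 433 ± 8.59 CPM with no overlap, a log2 fold change of -0.14 (SE 0.042), with an adjusted p of 0.0805 in edgeR and 0.0231 in DESeq2. Lmna, encoding the farnesylated precursor of lamin A, stood at 441 ± 8.24 and 449 ± 31.1 CPM (edgeR adjusted p = 0.841).

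On the sterol side, 8 of 11 genes from squalene to cholesterol rose and none fell, with a median log2 fold change of 0.33. Over all tested genes 0.925% were called higher and 2.16% lower, with a median of 0.002. Since this list was chosen with earlier results of these data known, nothing is read from its count. Nsdhl, a sterol dehydrogenase, went from 56.4 ± 3.33 to 85.0 ± 3.99 CPM (log2 fold change 0.59, edgeR adjusted p = 2.16e-06). Lss, lanosterol synthase, went from 65.8 ± 0.81 to 95.1 ± 2.98 CPM (0.53, adjusted p = 1.98e-06). Cyp51, the sterol demethylase, went from 162 ± 3.70 to 219.5 ± 8.20 CPM (0.43, adjusted p = 4.13e-06). Msmo1, the methylsterol oxidase, went from 208 ± 3.09 to 291 ± 23.0 CPM (0.49, adjusted p = 4.75e-06). These 4 have log2 fold changes within the span of the 7 higher members.

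Of 8 genes of SREBP control and uptake, 2 rose and none fell, where 0.925% of all tested genes were called higher and 2.16% lower, and their median log2 fold change was 0.05. Insig1, which holds the SREBP complex in the endoplasmic reticulum and is itself an SREBP target, went from 129 ± 3.09 to 169 ± 2.89 CPM (log2 fold change 0.39, edgeR adjusted p = 1.76e-05). Srebf2, encoding the SREBP that governs sterol genes, went from 162.5 ± 1.53 to 184.5 ± 11.1 CPM (0.18, adjusted p = 0.0399). The log2 fold changes of these 2 lie below 0.41, the lowest of the 7 higher members. The members and these lists were compared in the same 6 libraries, so their values are not independent of each other. Both were chosen with earlier results of these data known.

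**Figure D4:**
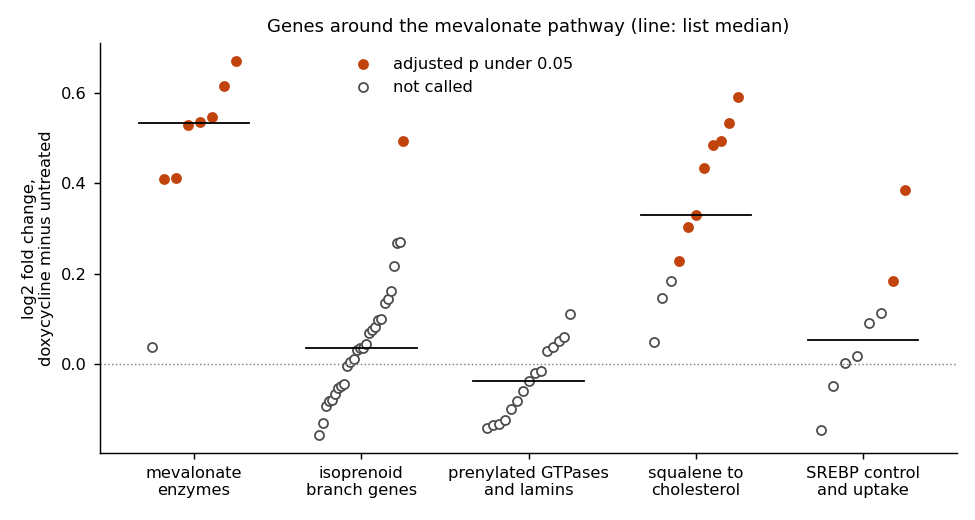
Log2 fold change (doxycycline against untreated) of every tested gene of the mevalonate list and of 4 lists around it; filled points passed the edgeR test and lines are list medians. The medians are 0.53 for the mevalonate enzymes, 0.33 for squalene to cholesterol, 0.05 for SREBP control, 0.04 for the isoprenoid branches and -0.04 for prenylated GTPases and lamins.

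Within the groups the members did not all deviate in the same direction. Deviations from the group mean on the log2 CPM scale were correlated over the 6 libraries for the 28 pairs of members, as a description with no p-value. The points share library and depth. The median Pearson's r was -0.13 with 11 pairs above 0, and 0 over all pairs of tested genes. Acat2, Hmgcs1, Idi1 and Ggps1 deviated together, with r between 0.66 and 0.96 over their 6 pairs. Doxycycline replicate 2 was the lowest doxycycline library for these 4 genes and the highest for Mvk, Pmvk and Fdps, and without it the 6 values ran from -0.61 to 0.78. This library also had the largest Rn45s share, 12.1%, and the part of that share in these deviations was not tested. Fdps and Ggps1 deviated in opposite directions, with r = -0.96, the lowest of the 28 pairs, whose highest was 0.96.

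**Figure D5:**
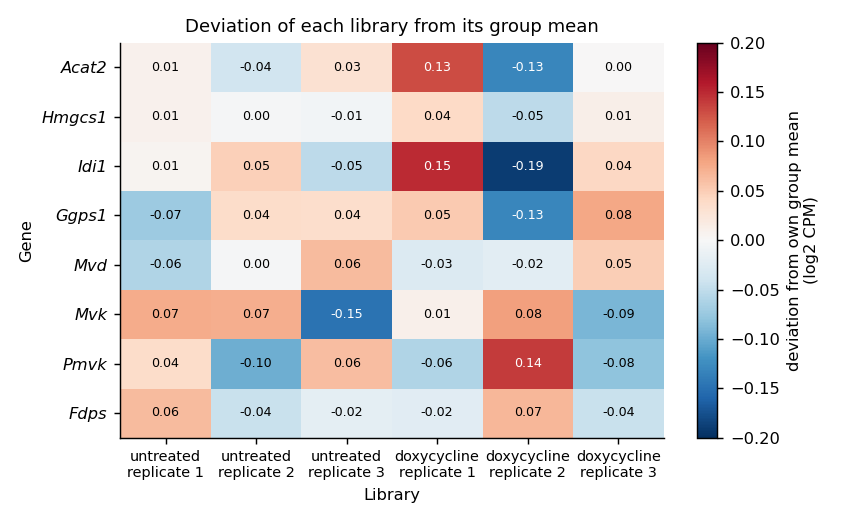
Deviation of each library from its own group mean (log2 CPM, colour scale and printed value) for the 8 members. In doxycycline replicate 2 Acat2, Hmgcs1, Idi1 and Ggps1 lie below their group mean and Mvk, Pmvk and Fdps above it.

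The profile of each member over the 6 libraries was set beside the mean of the other members. Pearson's r was 0.84 for Mvk, 0.87 for Pmvk, 0.95 for Fdps and 0.97 for Acat2, Mvd and Idi1. It rounded to 1 for Hmgcs1 and was 0.23 for Ggps1. Among all other tested genes, the 5 whose profile was most like the mean standardised profile of the members were Arhgap4 (r = 0.997), Elovl6 (0.996), E2f8 (0.994), Zfp592 (0.992) and Slc39a10 (0.992), each over 6 libraries. Elovl6, a fatty acid elongase, went from 221 ± 1.46 to 262 ± 8.41 CPM, a log2 fold change of 0.25. Slc39a10, a zinc importer, went from 113 ± 0.33 to 132 ± 4.96 CPM, a log2 fold change of 0.22. Arhgap4, a GTPase-activating protein, was at 0.68 ± 0.042 and 1.69 ± 0.22 CPM, a log2 fold change of 1.30. E2f8, a cell cycle repressor, and Zfp592 had log2 fold changes of 0.11 and 0.12. These genes were selected by a profile that holds the difference between the groups, so no p-value is given for them. The 6 points of each profile share their libraries and the difference between the groups.

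Several members lie beside or resemble other genes, and reads of those genes cannot always be told apart from theirs because the strand setting of the counting is not given. Mvk and Mmab, a cobalamin adenosyltransferase gene, start 209 bases apart on opposite strands. Mmab was at 13.5 ± 0.13 and 15.6 ± 0.49 CPM, without overlap, and did not pass (log2 fold change 0.21, SE 0.089, edgeR adjusted p = 0.226). Ggps1 shares 257 exon bases with Arid4b on the opposite strand, and Arid4b stood at 55.6 ± 1.501 and 54.8 ± 1.05 CPM (adjusted p = 0.909).

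Transcripts of Acat2 match those of Acat3 at 97.7% identity over 1477 bases, and Acat3 had 1.46 to 3.002 counts for every 100 of Acat2. They also match 445 bases of Tcp1, a chaperonin subunit gene on the opposite strand, at 98.7%. Tcp1 stood at 456 ± 13.4 and 485 ± 18.1 CPM (edgeR adjusted p = 0.336). Ggps1 matches the pseudogene Gm5630 at 97.2% over 903 bases. Idi1 matches the pseudogene Gm13502 at 100% over 684 bases and the pseudogene Gm35570 at 97.7% over 681 bases. Gm43738 shares 1124 exon bases with Fdps on the same strand, and Gm48342 shares 557 with Hmgcs1 on the opposite strand. Gm48574 shares 323 exon bases with Idi1 on the opposite strand, and Gm20388 and the small nuclear RNA gene Gm22935 lie over Mvd and Fdps without shared exon bases. These genes and pseudogenes were not analysed here, so the levels of Ggps1, Idi1, Fdps and Hmgcs1 are uncertain by any reads that could come from either copy.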

How the data were processed

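Libraries were made from total RNA with ribosomal RNA depletion and a strand-preserving kit. The authors aligned reads with STAR to GRCm38 (mm10) and counted them per gene with featureCounts (Subread 1.6.2), after base calling with bcl2fastq 2.20. They deposited raw read counts per gene symbol, with replicates kept apart. The strand setting and the treatment of multi-mapping reads are not given in the sources used here. Groups came from the sample titles, and 0 columns were unmatched.

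The test was edgeR 4.0.16 (quasi-likelihood, TMM scaling, filterByExpr, group as the only term) in R 4.3.3 on all 6 libraries, with Benjamini-Hochberg adjustment over 13084 genes at 0.05, tried first on simulated data. The study used DESeq2. CPM used TMM-scaled totals, and deviations used log2 CPM with a prior count of 2. Positions came from RefSeq on GRCm38, and overlaps and exon lengths from GENCODE M21. Sequence matches were found with BLAST 2.17.0, at 95% identity or more over at least 200 bases.

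The members and lists were chosen with earlier results of these data known. Named genes are the members, the related enzymes, up to 4 called genes per other list or else its 2 highest by mean CPM, Fdft1, neighbours within 1000 bases or overlapping, and the 5 most alike profiles. Alternatives were DESeq2 1.42.0, limma voom 3.58.1, other scalings and filters, the replicate block, the longest transcript as length, and leaving out each library. Removal of Rn45s and a loess correction for GC content and length were chosen after seeing the data. A planned comparison of the members' proteins was not made. Some genes of the lists are not reported here and were left out of the list counts. Replicates differed by 6.14 to 22.1 chi-square per degree of freedom, so none was counted as a duplicate.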

Additional observations from a re-analysis of the deposited data

How the results depend on the processing

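The direction and call of the 7 higher members held under every alternative run, with 1 exception. Without untreated replicate 3, Mvk was no longer called (log2 fold change 0.34), leaving 6 members called. Counts over all genes moved more. Higher and lower genes numbered 210 and 439 with no filter. DESeq2 called 185 genes higher. The GC content and length correction, which had values for 96.3% of genes, called 385 higher and 423 lower, so 52.4% of calls were lower in place of 70%. The cause was not tested. Leaving out 1 library gave 44 to 269 genes higher and 116 to 487 lower, the fewest without untreated replicate 3 and the most without doxycycline replicate 2. Branch genes called higher numbered 3 with the correction and 1 to 4 over the left-out libraries, with Rabggtb, Ptar1 and Nus1 added without doxycycline replicate 2. Sign changes, none of them of a called gene, were seen for Arid4b (0.025 with the correction) and, over the left-out libraries, Ggps1 (-0.003 to 0.1, below 0 without doxycycline replicate 3) and Acat3 (-0.112 to 0.234). With the longest transcript as length, untreated levels were 53.9 for Hmgcs1, 42.4 for Fdps, 40.6 for Acat2, 18.5 for Pmvk, 11.8 for Idi1, 8.59 for Mvd, 8.05 for Ggps1 and 7.79 for Mvk. Fdps then stood above Acat2 with overlapping libraries, and Mvd overlapped Ggps1 as well. With the replicate block 118 genes were higher and 300 lower, with 7 members and 1 branch gene called and a members' median of 0.53. Same-numbered libraries did not deviate together (r between -0.04 and 0.02). This cannot show whether the samples were paired, since paired samples need not share a deviation. At this depth the low counts of Idi2 allow no statement.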
